A study of Mus musculus with 4 samples.

Results

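S100a4, S100a6, S100a8, S100a9, S100a10 and S100a11 are 6 genes of the S100 family of small calcium-binding proteins, and were taken by name from the 16308 genes of the deposited count tables; 11 other rows carried a symbol that begins with S100. They were followed across leukocyte classes and 4 single-cell RNA-seq libraries of CD45+ cells, the sorted leukocytes, from the muscularis externa (the muscle layer) of the mouse small intestine. The libraries came from wild-type (WT, C57BL/6J) and Ccr2-deficient (CCR2 KO, B6.129S4-Ccr2tm1Ifc/J) mice aged 12 weeks, 24 h or 72 h after intestinal manipulation, the surgical handling of the bowel used to inflame its muscle layer. CCR2 is the chemokine receptor that monocytes need to exit the marrow into the blood, and the KO lacks it in all cells from birth. Each of the 4 groups was 1 library made from pooled mice, so there was no replicate, no test between conditions was possible, and the intervals given below are 95% intervals that cover counting error only.

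S100 proteins bind calcium through EF-hand loops, act mostly as dimers and change the activity of the proteins they then attach to. S100a8 and S100a9 form calprotectin, an abundant protein of the neutrophil cytosol that sequesters metal ions and, once released, acts as an alarm signal through Tlr4 and the receptor RAGE (gene Ager). The other members work mainly inside the cell: S100a10 joins annexin A2 (Anxa2), S100a11 joins annexin A1 (Anxa1), S100a6 binds Cacybp and Sugt1, and S100a4 binds non-muscle myosin heavy chain (Myh9).

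All 6 genes lie on chromosome 3 (GENCODE M21 on GRCm38). S100a4 (chr3:90603771-90606045, + strand), S100a6 (chr3:90612882-90624181, +), S100a8 (chr3:90668978-90670035, +) and S100a9 (chr3:90692632-90695721, − strand) stand in a row of 12 S100 genes within 184.687 kb, and S100a8 and S100a9, which point towards each other, are separated by 22.597 kb. S100a11 (chr3:93520488-93526287, +) and S100a10 (chr3:93555080-93564643, +) lie 2.82 Mb further on, 28.793 kb from each other. Promoter sequences of RefSeq (GRCm38.p6; 250 bases before to 50 after the start of the transcript) were at hand for 5 of the 6, not for S100a10. Those of the calprotectin genes are shown because these 2 genes had by far the highest levels and moved together from cell to cell; capitals mark the letters TATAAA and, in S100a8, ACTTCCTC, the reverse complement of GAGGAAGT, a motif of the myeloid factor PU.1.
S100a8 promoter (chr3:90668821-90669120, + strand): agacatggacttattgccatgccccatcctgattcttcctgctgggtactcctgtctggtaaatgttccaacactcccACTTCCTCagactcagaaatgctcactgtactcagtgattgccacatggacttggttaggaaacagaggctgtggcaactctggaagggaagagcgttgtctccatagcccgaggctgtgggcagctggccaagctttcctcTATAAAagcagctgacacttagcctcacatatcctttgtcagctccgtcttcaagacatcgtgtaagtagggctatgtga
S100a9 promoter (chr3:90695672-90695971, − strand): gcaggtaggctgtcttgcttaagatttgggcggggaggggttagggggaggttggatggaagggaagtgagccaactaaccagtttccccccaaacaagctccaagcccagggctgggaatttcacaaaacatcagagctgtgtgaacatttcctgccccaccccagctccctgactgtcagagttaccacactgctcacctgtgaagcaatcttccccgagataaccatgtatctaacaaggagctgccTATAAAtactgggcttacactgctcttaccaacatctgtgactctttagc
The 3 motifs searched, which do not overlap one another in these windows, were read on both strands: TATAAA, GAGGAAGT and TGAGTCA (AP-1). TATAAA stood at −30 in S100a8, at −31 in S100a4 and at the start itself in S100a9, counting from 0 at the first base of the transcript, and was in 13.6% of all 32851 promoters. GAGGAAGT, in 3.2% of all promoters, was on the opposite strand at −172 in S100a8 and at 17 in S100a4. TGAGTCA, in 5.2%, was in S100a11 at −136 and −38, and the S100a6 window held none of the 3. A match is a description of letters, not a binding site.

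Wherever 4 values follow each other below, they stand for WT and CCR2 KO at 24 h and then WT and CCR2 KO at 72 h. The libraries held 1674, 1774, 1315 and 1048 cells, with 9736725 to 21206308 UMIs (unique molecular identifiers, 1 per captured RNA molecule) per library and a median of 3281.5 to 12859 UMIs per cell. Ptprc, the gene of CD45, was detected in 91.6% to 96.5% of cells, and 4 cell barcodes occurred in more than 1 library. Cells were sorted into classes by marker genes that included no S100 gene: 2381 neutrophil-like, 2536 monocyte/macrophage-like (Mφ-like), 195 dendritic cell-like, 176 T cell-like, 70 NK-like, 75 innate lymphoid-like and 61 B cell-like cells, no eosinophil-like cell, and 291 cells without a class. Neutrophil-like cells were 18.3% and 14.4% of the WT libraries but 74.1% and 54.4% of the CCR2 KO libraries (24 h and 72 h), with a median of 2067 to 3444.5 UMIs against 14193 to 16026 in Mφ-like cells. Ccr2 was at 758 and 1062 CPM (UMIs per 1000000 UMIs of the class) in WT Mφ-like cells and at 95.7 and 86.3 CPM in CCR2 KO Mφ-like cells. Doublets could not be called: Scrublet marked 11 of 5811 cells (0.189%), which is too few for the caller to have worked. All S100 levels below are CPM of the summed cells of a class, which a 3′ library gives as 1 count per molecule whatever the gene's length.

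S100a8 and S100a9 were genes of the neutrophil-like cells and stood far above the other members there. S100a8 was at 41521, 28257, 25240 and 44595 CPM (95% interval of the first 41074 to 41972). S100a9 was at 54986, 32564, 35508 and 42887 CPM. Both genes were lower in CCR2 KO at 24 h and WT at 72 h than in the other 2 libraries. Together they were at 60747 to 96507 CPM in the neutrophil-like pools, and these cells held 80.7% to 99.2% of all S100a8 UMIs and 94.2% to 99.6% of all S100a9 UMIs of a library. S100a6, at 4013, 3444, 3587 and 5743 CPM, and S100a11, at 2426, 2310, 3036 and 2855 CPM, were also highest in this class in each library. S100a4 and S100a10 were close to absent: S100a4 was at 44.1, 14.3, 8.41 and 35.2 CPM and S100a10 at 40.3, 18.1, 10.5 and 39.3 CPM, and in WT 24 h 1 cell carried 13 of 35 S100a4 UMIs and 1 cell 21 of 32 S100a10 UMIs. Macrophage markers were present at 261 to 409 CPM, summed over the list, in these pools; their part in the low S100a4 and S100a10 levels was not tested.

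**Figure D1:**
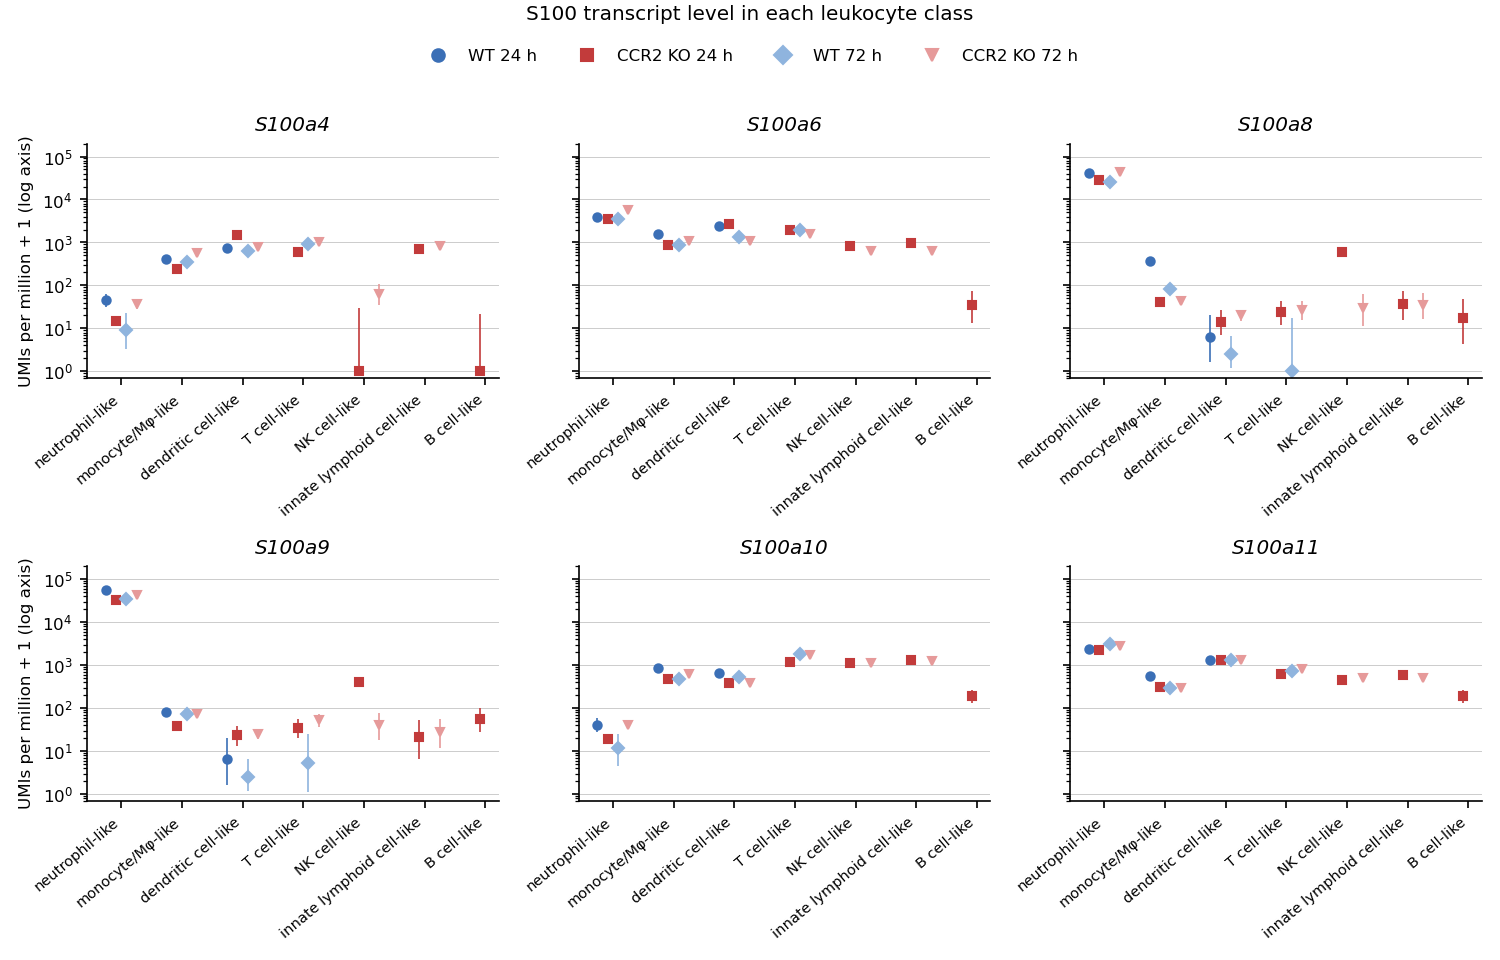
Levels of the 6 S100 genes (CPM + 1 on a log axis; bars are 95% exact Poisson intervals, counting error only) in each cell class with at least 20 cells, 1 point per library. S100a8 and S100a9 are at 25240 CPM or more in neutrophil-like cells and at or below 587 CPM elsewhere, while S100a4 and S100a10 are lowest in neutrophil-like cells or, for S100a4, also at 0 in B cell-like and NK-like cells of CCR2 KO 24 h.

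Mφ-like cells expressed the 4 other members at 246 to 1543 CPM. S100a6 was the highest, at 1543, 883, 853 and 1076 CPM (95% interval of the first 1525 to 1560). S100a10, the annexin A2 partner, followed at 855, 473, 487 and 617 CPM. S100a11 was at 551, 315, 295 and 292 CPM and S100a4, a protein of motile cells, at 401, 246, 357 and 570 CPM. WT 24 h was the highest of the 4 libraries for S100a6, S100a10 and S100a11, and CCR2 KO 72 h for S100a4. The intervals of S100a6 in CCR2 KO 24 h (852 to 914 CPM) and WT 72 h (837 to 868 CPM) overlapped, and S100a11 did not differ between WT 72 h and CCR2 KO 72 h beyond its counting intervals.

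Dendritic cell-like cells had at least as much S100a6 and more S100a4 and S100a11 than Mφ-like cells. S100a11 hardly moved, at 1310, 1341, 1310 and 1292 CPM, and S100a4 was at 756, 1477, 647 and 768 CPM. S100a6 was at 2394, 2659, 1311 and 1101 CPM and S100a10 at 659, 390, 532 and 375 CPM. The pools held 26 to 69 cells, of which 34.4% over all libraries lay near the limit of the marker gate. At 72 h T cell-like cells were the class with the highest S100a10, at 1786 CPM in WT 72 h and 1741 CPM in CCR2 KO 72 h, and had S100a4 at 597 (CCR2 KO 24 h), 921 and 1039 CPM. Innate lymphoid-like cells resembled them in S100a4 (702 and 832 CPM in CCR2 KO 24 h and 72 h) and S100a10 (1297 and 1222 CPM). NK-like cells had S100a10 at 1151 and 1133 CPM but S100a4 at 0 (0 UMIs, which allows a level of up to 22.9 CPM, that of 3 UMIs) and 63.0 CPM. B cell-like cells of CCR2 KO 24 h had the lowest S100a6 and S100a11 of all classes, at 33.2 and 188 CPM, with S100a10 at 188 CPM and no S100a4 UMI, which allows up to 16.6 CPM.

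The members thus differed in where they were expressed, though S100a8 and S100a9 were alike. S100a8 with S100a9, and S100a6 with S100a11, had a gene in common among their nearest 3, and S100a4 and S100a10 had none in common with another member. Over the 20 class by library pools with at least 20 cells, S100a8 and S100a9 had a Pearson correlation of log2(CPM + 1) of 0.980, the highest of any gene for S100a8 among 9703 compared; the next for S100a8 were Hdc (histidine decarboxylase) at 0.952 and the chemokine receptor Cxcr2 at 0.947, and for S100a9 they were Stfa2l1 (a stefin) at 0.970 and Cxcr2 at 0.967. S100a10 ran opposite to S100a8 (−0.82) and S100a9 (−0.86), and its nearest genes were Sept11 (0.963), Tusc3 (0.956) and Nrip1 (0.950). S100a6 and S100a11 had a correlation of 0.791 and shared Glipr2 among their nearest 3 (0.888 and 0.903), with Mrpl33 (0.908) and Gcnt2 (0.885) for S100a6 and Coq10b (0.881) and Rin3 (0.878) for S100a11. S100a4 was nearest to Smpdl3a (0.908), Sil1 (0.902) and Ckb (0.898). Hdc and Cxcr2 are themselves neutrophil gate markers, and the pools of a library share its free RNA and depth, so these values only describe the pools.

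S100a4 and S100a11 are less certain than the other members in every class. Of the 50-base windows in the last 400 bases of the transcripts, where 3′ reads fall, 50.7% of the S100a4 windows also occurred in Gm42674, a protein-coding model that overlaps it on the same strand, and 43.6% of the S100a11 windows occurred in processed pseudogenes. None of these genes had a row in the tables, and the other 4 members shared no window. How the counting assigned such reads was not tested.

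Within the neutrophil-like class S100a8 and S100a9 varied together from cell to cell. After thinning each cell to 1000 UMIs their Spearman correlation was 0.911, 0.856, 0.903 and 0.903 (288, 1298, 183 and 544 cells). S100a6 with S100a11 reached 0.149, 0.274, 0.558 and 0.501. The spread was wide: in CCR2 KO 72 h the median cell had S100a8 at 6722 CPM, far below the 44595 CPM of the summed cells, and in WT 24 h it had 16824 CPM. After thinning, S100a8 was detected in 91.0%, 82.8%, 79.2% and 74.3% of the cells (93.5%, 89.4%, 83.1% and 81.9% before thinning) against 0% to 2.8% of lymphoid cells (T, NK, innate lymphoid and B cell-like together), whose median depth was 4817 to 7330 UMIs. S100a9 was detected in 91.0%, 85.0%, 85.2% and 72.2% against 0% to 5.6%. Both shares were thus lowest in CCR2 KO 72 h, the library in which the summed S100a8 level was highest.

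A split of the class by Retnlg, a resistin-like gene of neutrophils, separated high from low calprotectin cells in each library. The split was set after the data were seen and takes each cell with at least 1 Retnlg UMI: 172 (56.0% of the class), 316 (24.0%), 55 (29.1%) and 158 (27.7%) cells. S100a8 was at 52238, 56996, 52623 and 90128 CPM in these cells and at 16019, 16449, 10171 and 11470 CPM in the others. S100a9 was at 69226, 70071, 70804 and 87039 CPM against 21100, 17152, 16084 and 10768 CPM. The log2 ratio for S100a8 was 1.71 and 1.79 at 24 h and 2.37 and 2.97 at 72 h (WT and CCR2 KO), and that for S100a6 was 0.83 and 1.08 and then 2.18 and 2.36. S100a11 was 2572 against 2081 CPM in WT 24 h and 4830 against 1419 CPM in CCR2 KO 72 h. At least 2-fold differences were seen in 4 of 6 members in WT 24 h (23.9% of all genes tested), 4 of 5 in CCR2 KO 24 h (13%), 4 of 4 in WT 72 h (45.8%) and 6 of 6 in CCR2 KO 72 h (54.9%), S100a10 being lower in both KO libraries, S100a4 lower in CCR2 KO 72 h and all other calls higher. The S100a4 and S100a10 calls rested on few UMIs: when the cell with the most UMIs of the gene was left out on each side, an alternative chosen after seeing the data, S100a10 was under 20 CPM on both sides in both 24 h libraries, which left 3 of 5 in WT 24 h and 3 of 4 in CCR2 KO 24 h. Retnlg-detecting cells were also deeper, with a median of 2701, 3561, 3030 and 5629 UMIs against 1583, 2804, 2284 and 3009, but thinned cells kept the gap: S100a8 was then at 47605, 60452, 50477 and 86108 CPM against 19747, 16916, 10496 and 11916 CPM.

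**Figure D2:**
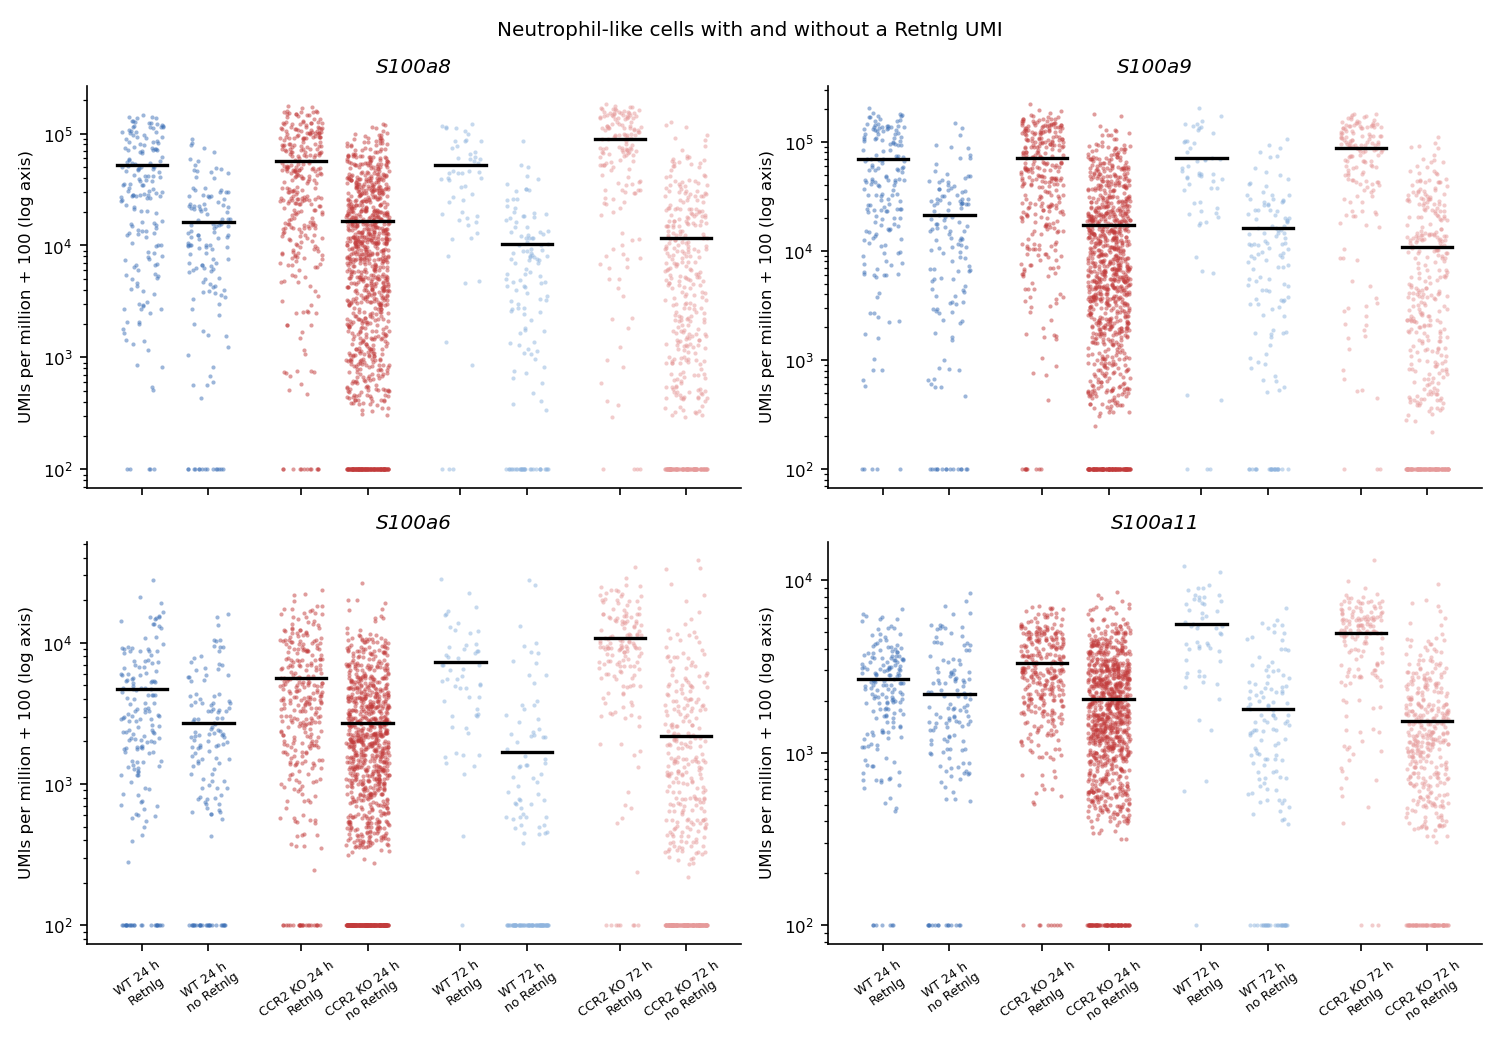
S100a8, S100a9, S100a6 and S100a11 per neutrophil-like cell (CPM + 100 on a log axis), split by whether the cell had a Retnlg UMI, for each of the 4 libraries; black lines give the level of the summed cells. The summed S100a8 level is 52238 to 90128 CPM in Retnlg-detecting cells and 10171 to 16449 CPM in the others.

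Siglecf, the gene of a lectin of eosinophils that neutrophils of inflamed tissue can also carry, was detected in cells with less S100a8 and S100a9 at 72 h, and the gap was smaller among cells without Retnlg. Siglecf was detected in 7.82% and 14.4% of neutrophil-like cells at 24 h (WT and CCR2 KO) and in 43.4% and 49.6% at 72 h. After thinning these shares were 4.86% and 5.62% at 24 h and 27.9% and 26.8% at 72 h, so the genotypes were close at both times. S100a8 was at 37186 and 22415 CPM in Siglecf-detecting cells against 41844 and 29293 CPM in the others at 24 h, and at 13374 and 17751 CPM against 34004 and 67688 CPM at 72 h. After thinning the 24 h values were 20500 and 15890 CPM (14 and 73 Siglecf-detecting cells) against 33332 and 24050 CPM, and those at 72 h were 12510 and 11767 CPM against 23046 and 36204 CPM. S100a9 was at 19571 and 17537 CPM against 47279 and 64696 CPM at 72 h. All 4 members with a level to compare in WT 72 h, and 4 of 6 in CCR2 KO 72 h, differed at least 2-fold and were lower in Siglecf-detecting cells, where 28.3% and 31.1% of all genes passed 2-fold in either direction. Among cells without a Retnlg UMI at 72 h, S100a8 in Siglecf-detecting cells and in cells with neither gene was at 6883 against 14344 CPM in WT but at 10714 against 12974 CPM in CCR2 KO. For S100a9 these values were 11779 against 21549 CPM in WT and 10751 against 10802 CPM in CCR2 KO. The median cell of CCR2 KO went the other way, with S100a8 at 2854 against 1340 CPM and S100a9 at 2471 against 1422 CPM. In WT the median cell kept the direction, at 3461 against 4859 CPM for S100a8 and 6218 against 9355 CPM for S100a9.

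The first comparison the design implies is CCR2 KO against WT within neutrophil-like cells. At 24 h S100a8 was lower in CCR2 KO, at a log2 ratio of −0.56 (−0.57 to −0.54), as were S100a9, at −0.76 (−0.77 to −0.74), and S100a6, at −0.22 (−0.28 to −0.16). S100a11 stood at −0.07 (−0.14 to 0.00). Of the 6 members 2, the near-absent S100a4 (−1.63) and S100a10 (−1.15), passed 2-fold, and 8.96% of 4500 genes did so in either direction. Without the cell with the most UMIs of the gene in each library S100a4 was at −1.36 and S100a10 was under 20 CPM in both, which leaves 1 of 5 with a level to compare. At 72 h the sign was the other way for 5 members: S100a8 was higher in CCR2 KO by 0.82 (0.79 to 0.85), S100a9 by 0.27 (0.25 to 0.30) and S100a6 by 0.68 (0.61 to 0.75), with S100a11 at −0.09 (−0.17 to −0.01). Again 2 of 6 passed 2-fold, S100a4 (2.07) and S100a10 (1.90), on 4 and 5 UMIs in WT 72 h, where 4.44% of 5467 genes did. The S100a9 difference at 72 h became −0.01 when each cell had equal weight. The median log2 ratio of all genes was 0.04 at 24 h and −0.05 at 72 h.

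For S100a8 and S100a9 the 24 h difference in the CPM of the summed, unthinned cells was smaller within either side of the Retnlg split. Among Retnlg-detecting cells the CCR2 KO against WT log2 ratio at 24 h was 0.13 (0.11 to 0.15) for S100a8 and 0.02 (0.00 to 0.03) for S100a9, and among the other cells it was 0.04 (−0.01 to 0.09) and −0.30 (−0.34 to −0.26). S100a6 and S100a11 were at 0.26 and 0.32 among Retnlg-detecting cells and at 0.00 and −0.10 among the others. The median cell without a Retnlg UMI had S100a8 at 10101 CPM in WT 24 h and 7154 CPM in CCR2 KO 24 h. Its S100a9 was at 12465 and 5857 CPM. Thinned and summed, the cells without Retnlg had S100a8 at 19747 and 16916 CPM and S100a9 at 26630 and 18560 CPM. At 72 h the ratio was 0.78 for S100a8 and 0.30 for S100a9 among Retnlg-detecting cells, and 0.17 and −0.58 among the others. The median cell without Retnlg at 72 h went the other way for S100a8, at 4364 CPM in WT and 2220 CPM in CCR2 KO. Its S100a9 was at 8317 and 1994 CPM. Neither gene passed 2-fold in the comparisons of summed cells. Of all genes, 15.6% and 11.7% did at 24 h (Retnlg-detecting and other cells) and 16.4% and 8.39% at 72 h. The share of Retnlg-detecting cells after thinning was 46.5% in WT 24 h, 15.3% in CCR2 KO 24 h and 24.0% and 23.9% at 72 h.

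Calprotectin transcripts of neutrophil-like cells were lower at 72 h than at 24 h in WT and, on the CPM scale, higher in CCR2 KO, where TMM scaling turned the sign of S100a9. The WT log2 ratio of 72 h to 24 h was −0.72 (−0.75 to −0.69) for S100a8, −0.63 (−0.66 to −0.61) for S100a9, −0.16 for S100a6 and 0.32 for S100a11. In CCR2 KO it was 0.66 (0.65 to 0.67), 0.40 (0.39 to 0.41), 0.74 and 0.31. These ratios stand against medians of all genes of 0.51 and 0.39, since many genes were higher at 72 h, and TMM scaling, which moved all ratios down by 0.57 in both genotypes, gave −1.28 and −1.20 for S100a8 and S100a9 in WT but 0.08 and −0.18 in CCR2 KO, and −0.24 and −0.27 for S100a11, whose sign turned in both. In each genotype 2 of 6 members passed 2-fold, S100a4 and S100a10, lower in WT and higher in CCR2 KO, where 30.8% and 26.1% of all genes did. Without the cell with the most UMIs of the gene in each library, 1 did in each: S100a10 in WT was under 20 CPM at both times and not compared, and S100a4 in CCR2 KO was at 0.87. Among Retnlg-detecting cells the S100a8 ratio of WT was 0.01 (−0.02 to 0.04) and that of CCR2 KO 0.66 (0.65 to 0.68), and among the other cells it was −0.66 and −0.52. S100a11 of Retnlg-detecting cells was at 1.09 (0.97 to 1.21) in WT, where 24.3% of all genes passed 2-fold, and at 0.59 in CCR2 KO, where 11.1% did.

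**Figure D3:**
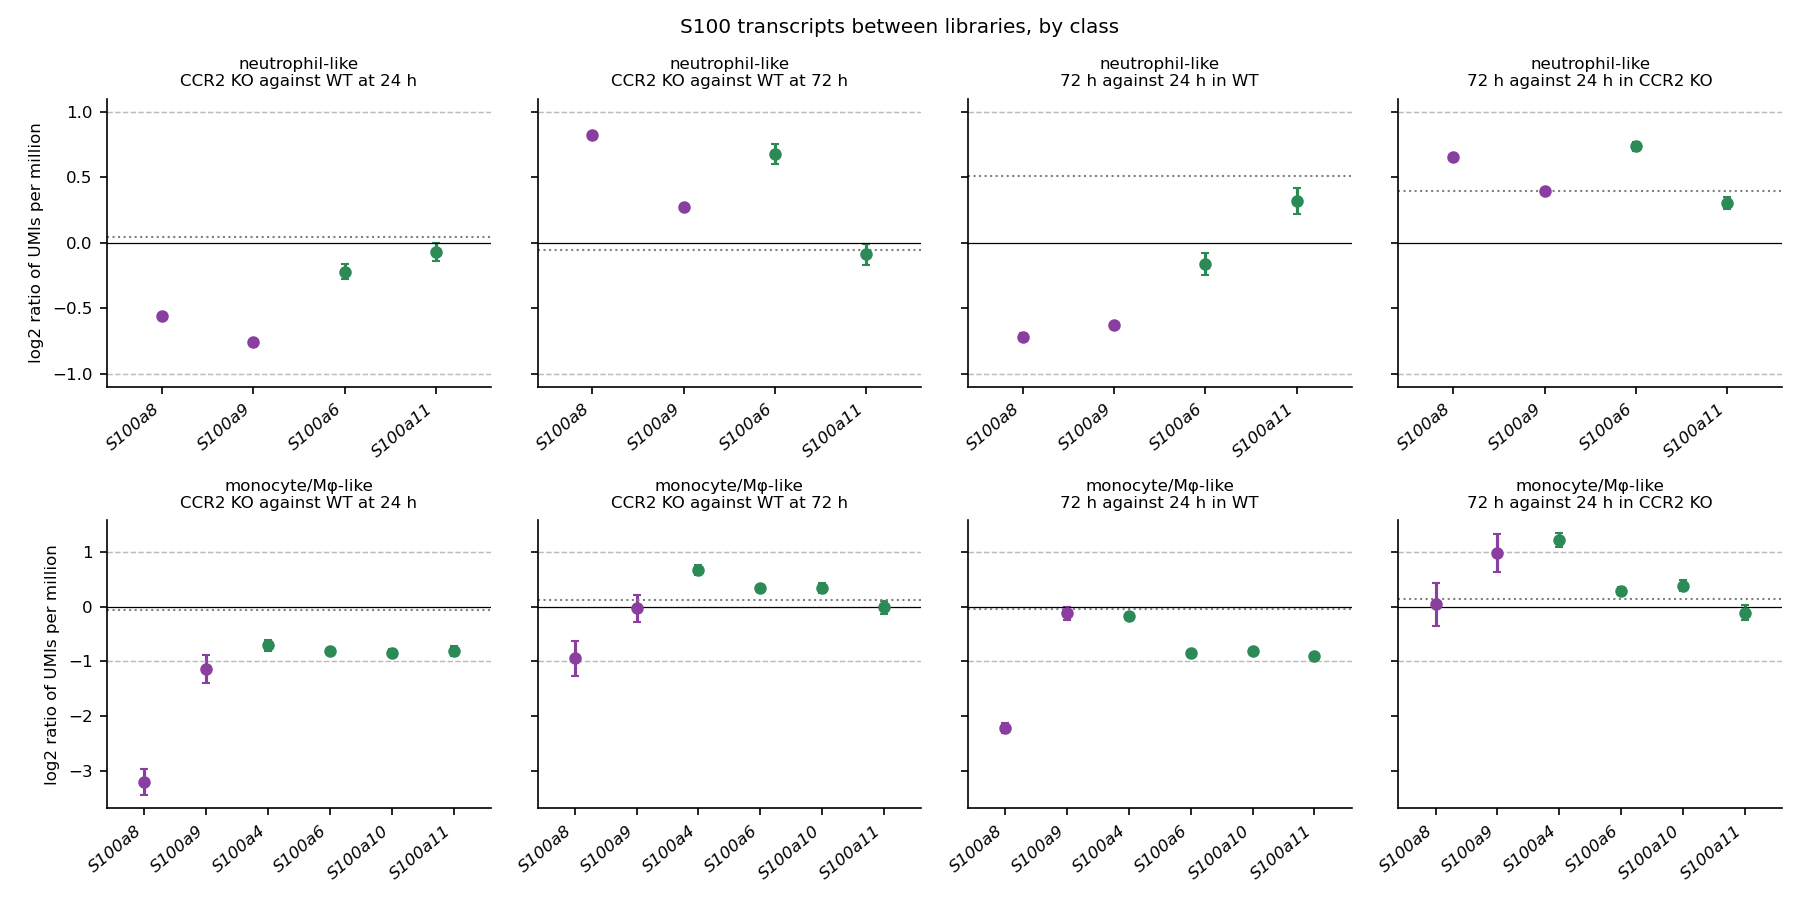
Log2 ratios of S100 genes (4 in neutrophil-like cells, 6 in Mφ-like cells) for CCR2 KO against WT at 24 h and 72 h and for 72 h against 24 h in WT and CCR2 KO, with 95% exact intervals that cover counting error only; dotted lines mark the median of all genes and dashed lines 2-fold. In neutrophil-like cells S100a8 goes from −0.56 at 24 h to 0.82 at 72 h (CCR2 KO against WT), and in Mφ-like cells S100a4 goes from −0.70 to 0.68; under TMM scaling the 72 h against 24 h ratios of neutrophil-like cells are 0.57 lower, which turns the sign of S100a9 in CCR2 KO and of S100a11 in both genotypes.

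In Mφ-like cells S100a4, S100a6, S100a10, S100a11 and S100a8 were lower in CCR2 KO than in WT at 24 h; S100a9 was too, but on few cells. The log2 ratios were −0.70 (−0.81 to −0.60) for S100a4, −0.81 (−0.86 to −0.75) for S100a6, −0.85 (−0.93 to −0.78) for S100a10 and −0.81 (−0.89 to −0.72) for S100a11, where the median of all genes was −0.07. S100a8, at −3.20 (−3.45 to −2.96), and S100a9, at −1.14 (−1.40 to −0.88), passed 2-fold, so 2 of 6 did, against 3.99% of 5866 genes. The S100a9 ratio turned to 1.47 when the 17 WT cells and 1 CCR2 KO cell with at least 10 S100a9 UMIs were left out. That left S100a9 at 11.7 CPM in WT and 32.4 CPM in CCR2 KO. Lymphoid cells of CCR2 KO 24 h, which should lack it, had 86.1 CPM, or 37.0 CPM without their top cell. At 72 h S100a4 was higher in CCR2 KO by 0.68 (0.58 to 0.77), S100a6 by 0.34 (0.27 to 0.40) and S100a10 by 0.34 (0.25 to 0.43), and S100a11 stood at −0.01 (−0.14 to 0.11). None of the 6 passed 2-fold at 72 h, where 7.6% of 6412 genes did, but the S100a8 ratio of −0.94 was 2.27 without the 8 WT cells and 1 CCR2 KO cell with at least 10 S100a9 UMIs. S100a8 was then at 8.47 CPM in WT and 40.7 CPM in CCR2 KO, where lymphoid cells had 27.9 CPM. With cells above 5% mitochondrial UMIs left out, which took CCR2 KO 72 h from 136 to 46 Mφ-like cells, the log2 ratio of the summed 4 members was 1.16 in place of 0.36; S100a11 alone was at 0.86 then and at 0.85 in Leiden clusters.

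Over time 3 of these 4 members, S100a4, S100a6 and S100a10, had opposite signs in WT and CCR2 KO Mφ-like cells. In WT the 72 h to 24 h log2 ratio was −0.17 (−0.22 to −0.12) for S100a4, −0.86 (−0.89 to −0.82) for S100a6, −0.81 (−0.85 to −0.77) for S100a10 and −0.90 (−0.95 to −0.85) for S100a11. In CCR2 KO it was 1.21 (1.08 to 1.34), 0.29 (0.21 to 0.36), 0.38 (0.28 to 0.49) and −0.11 (−0.25 to 0.03). In WT 1 of 6, S100a8, passed 2-fold (13.1% of all genes), and in CCR2 KO 1 of 6, S100a4, did (14.9%). S100a11 in CCR2 KO turned to 0.70 in Leiden clusters and 0.78 with at most 5% mitochondrial UMIs. The median log2 ratio of all genes was −0.04 in WT and 0.14 in CCR2 KO.

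The ratio of S100a8 to S100a9 was higher in the Mφ-like cells of WT 24 h than in the other pools. S100a8 was at 370, 40.3, 79.8 and 41.5 CPM in the Mφ-like pools, whereas S100a9 was at 79.9, 36.4, 73.5 and 72.0 CPM. The ratio of S100a8 to S100a9 UMIs was 4.63 (4.39 to 4.90) in this pool and 0.755 in the neutrophil-like cells of the same library, and without the 5 cells with the most of these UMIs it was 9.81. In the other Mφ-like pools it was 1.11, 1.09 and 0.577. Of 1282 WT 24 h Mφ-like cells, 172 (13.4%) held at least 5 S100a8 UMIs, and 113 of them had no S100a9 UMI; in the neutrophil-like cells of that library 4 of 257 such cells had none. In the other 3 libraries 4, 11 and 1 Mφ-like cells reached 5 S100a8 UMIs. The ratio thus differed between the cell classes of 1 library.

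The S100a8 cells of WT 24 h were rich in other genes as well. Compared with the other Mφ-like cells of that library, and named after their values were seen, Wfdc21 was at 372 against 33.0 CPM, Lcn2 (lipocalin 2, an iron-sequestering protein) at 881 against 118 CPM, Chil3 (a chitinase-like protein of monocytes and macrophages) at 3934 against 985 CPM, Mmp8 (neutrophil collagenase) at 133 against 20.8 CPM and Ly6c2, a marker of inflammatory monocytes, at 270 against 123 CPM. Antigen presentation genes were lower, with H2-Eb1 at 109 against 1338 CPM and Cd74 at 823 against 5409 CPM. S100a9 (465 against 8.30 CPM, with 1417 of the 1553 S100a9 UMIs of this pool), S100a6 (2805 against 1308 CPM), S100a11 (1014 against 464 CPM) and S100a4 (682 against 349 CPM) were all higher in them. The S100a9 level was that of few cells: 113 of the 172 had none. Without the 17 Mφ-like cells with at least 10 S100a9 UMIs, this pool held 225 S100a9 UMIs. Whether few cells also held most of the Wfdc21, Lcn2 or Mmp8 UMIs was not tested. The median depth of the 172 cells was 16583.5 UMIs, against 14280 in the other cells.

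**Figure D4:**
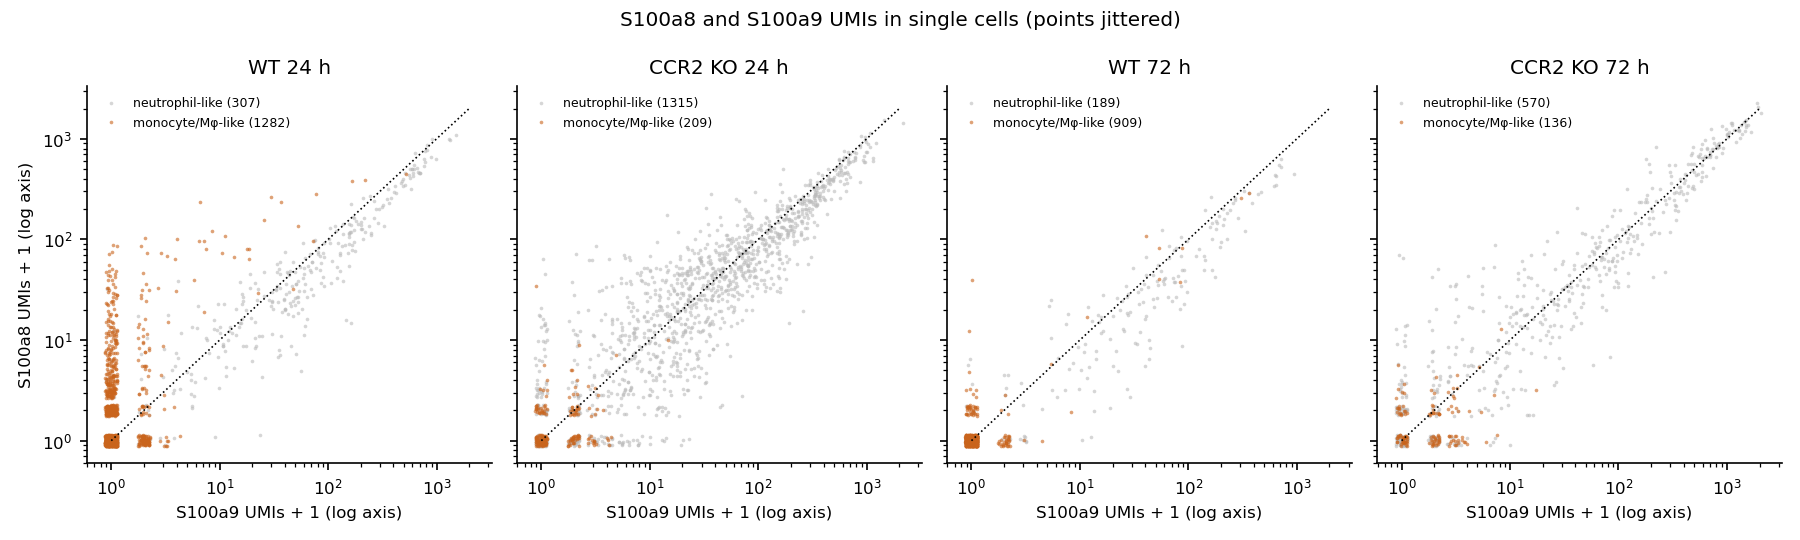
S100a8 against S100a9 UMIs per cell, each plus 1 and jittered, in neutrophil-like (grey) and Mφ-like (orange) cells of the 4 libraries (log axes); the dotted line marks equal counts. Neutrophil-like cells lie along 1 diagonal, with a S100a8 to S100a9 ratio of 0.711 to 1.04, and in WT 24 h a group of Mφ-like cells holds S100a8 with little or no S100a9, 113 of the 172 with at least 5 S100a8 UMIs having none.

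S100a9 in Mφ-like cells rested on few cells. When cells with at least 10 S100a9 UMIs were left out (17, 1, 8 and 1 cells), an alternative chosen after seeing the data, S100a9 was at 11.7, 32.4, 3.70 and 65.3 CPM and the 24 h log2 ratio of CCR2 KO to WT turned from −1.14 to 1.47. S100a8 was then at 223, 38.3, 8.47 and 40.7 CPM, its 24 h ratio was −2.54, and its 72 h ratio turned from −0.94 to 2.27. Lymphoid cells, which should lack both genes, had S100a8 at 13.5, 102, 0 and 27.9 CPM and S100a9 at 6.76, 86.1, 3.68 and 42.6 CPM, the CCR2 KO 24 h values being mostly 1 NK-like cell with 79.4% of the S100a8 and 57.3% of the S100a9 UMIs. Without the lymphoid cell with the most UMIs of the gene, the CCR2 KO 24 h background was 21.2 CPM (12.9 to 32.7) for S100a8 and 37.0 CPM (25.8 to 51.5) for S100a9, beside Mφ-like levels of 40.3 and 36.4 CPM. S100a8 of WT 24 h stood at 370 against 13.5 CPM. In dendritic cell-like cells S100a8 and S100a9 were at 1.52 to 23.7 CPM, at or below the lymphoid level in each library except for S100a8 in WT 72 h, with 2 UMIs against 0, and, without the lymphoid cell with the most UMIs, also S100a9 in WT 24 h, with 2 against 0.

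The members also differed between subsets of the Mφ-like class. The subsets were cut at 200 CPM of a gene, set after the data were seen, in libraries with at least 20 cells on each side. Cells high in Cx3cr1, the fractalkine receptor of resident macrophages, numbered 71, 36, 277 and 43 and had S100a6 at 768, 46.4, 423 and 407 CPM against 1580, 1045, 1016 and 1503 CPM in the other cells. S100a10 was at 391, 58.5, 251 and 328 CPM against 877, 554, 577 and 802 CPM. S100a4 was at 219, 48.1, 171 and 211 CPM against 410, 285, 428 and 798 CPM, and S100a11 at 328, 65.4, 223 and 132 CPM against 561, 364, 322 and 394 CPM. Each of these 4 genes was thus lower in Cx3cr1-high cells in all 4 libraries; S100a6 and S100a10 passed 2-fold in each, where 5.2%, 22.3%, 1.97% and 6.15% of all genes did.

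**Figure D5:**
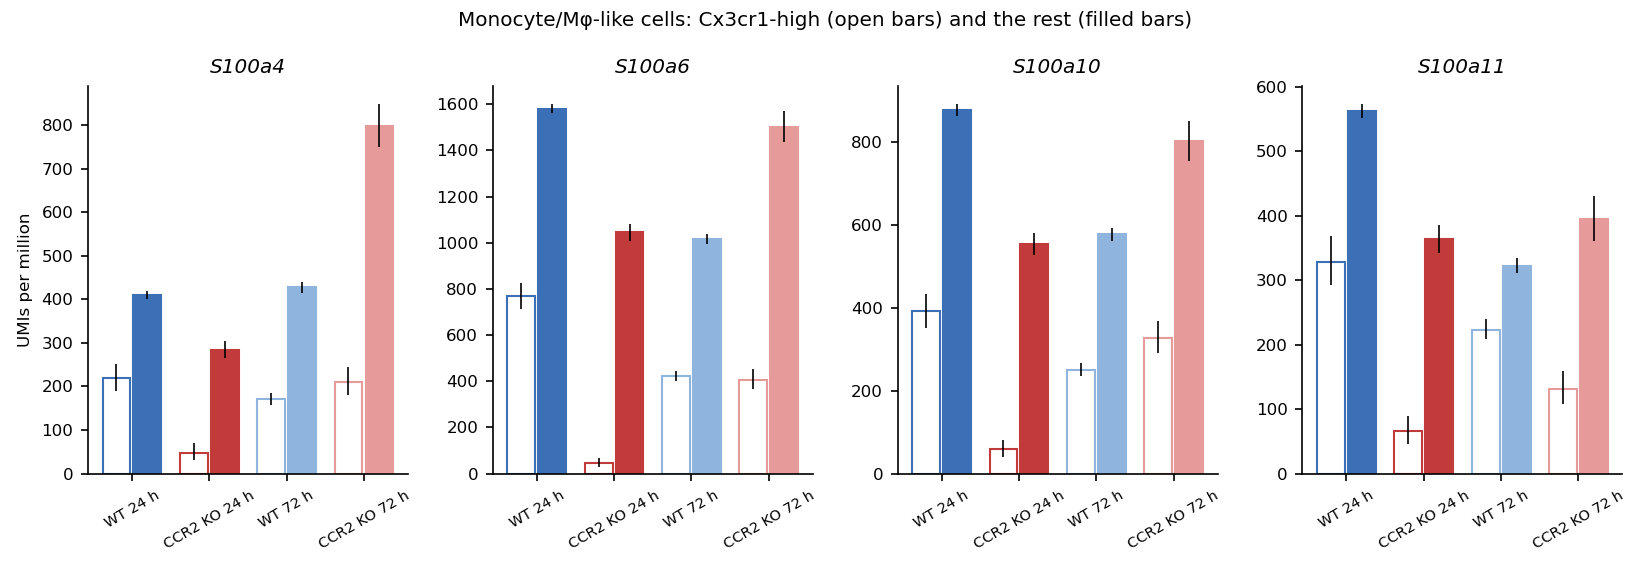
S100a4, S100a6, S100a10 and S100a11 (CPM, with 95% exact Poisson intervals) in Mφ-like cells at or above 200 CPM of Cx3cr1 (open bars) and in the other Mφ-like cells (filled bars) of each library. All 4 genes are lower in the Cx3cr1-high cells in each library, with S100a6 at 46.4 against 1045 CPM in CCR2 KO 24 h.

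Cells high in Mrc1, the gene of CD206, were also low in S100a4, at 333, 76.5, 291 and 194 CPM against 508, 410, 804 and 1881 CPM, and in S100a6, at 1344, 497, 740 and 448 CPM against 1851, 1253, 1616 and 3273 CPM. Cells high in Cd81, a tetraspanin, had S100a4 at 99.0, 44.0, 267 and 80.4 CPM against 419, 346, 443 and 1495 CPM. Arg1-high cells (arginase 1) had more S100a10, at 973, 711, 712 and 1059 CPM against 638, 341, 415 and 498 CPM. The 46 Ltc4s-high cells of WT 24 h (leukotriene C4 synthase) had S100a10 at 1862 against 830 CPM, with S100a6 at 3851 against 1486 CPM and S100a4 at 1226 against 381 CPM. They were shallow, with a median of 7634 UMIs against 14779 in the other cells, and the part of depth in this was not tested. Ltc4s-high cells also numbered 239 in WT 72 h and 25 in CCR2 KO 72 h, whose S100 levels are not given here. Ly6c2-high cells of WT 24 h (252 cells) had S100a8 at 932 against 232 CPM, and at 519 against 153 CPM without the cells with at least 10 S100a9 UMIs. In WT 72 h the 29 Ly6c2-high cells had less S100a8, at 6.77 (1.40 to 19.8) against 82.3 CPM. Without the cells with at least 10 S100a9 UMIs the WT 72 h values were 6.77 against 8.53 CPM, within the counting interval.

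Inside these subsets the 24 h difference between CCR2 KO and WT was unequal. Within Chil3-high cells (720 in WT, 86 in CCR2 KO) the log2 ratio was −0.19 for S100a4, −0.44 for S100a6, −0.60 for S100a10 and −0.52 for S100a11, all closer to 0 than in the whole class, while S100a8 was at −3.39 (56.8 against 597 CPM). Within Arg1-high cells the 4 lay between −0.55 and −0.45. Within Mrc1-high cells they were −2.12, −1.43, −1.10 and −1.22, and within Cx3cr1-high cells −2.19, −4.05, −2.74 and −2.33, so all 4 passed 2-fold in both subsets, where 5.13% and 15.2% of all genes did. The Cx3cr1-high comparison rested on 36 CCR2 KO cells.

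In dendritic cell-like cells S100a4 was higher in CCR2 KO at 24 h by a log2 ratio of 0.97 (0.77 to 1.16) and S100a10 lower, at −0.76 (−1.01 to −0.50), and at 72 h S100a10 was lower again, at −0.51 (−0.65 to −0.36). S100a6 was lower at 72 h than at 24 h in both genotypes, with a log2 ratio of −0.87 (−0.99 to −0.75) for WT. For CCR2 KO it was −1.27 (−1.36 to −1.18), and S100a6 was 1 of 5 members with a level to compare to pass 2-fold (11.7% of all genes). In CCR2 KO against WT only S100a9, 1 of 5 with a level to compare, passed 2-fold, on 2 UMIs in either WT library, at 24 h (13.1% of all genes) and 72 h (4.41%). Its CCR2 KO levels of 22.2 and 23.7 CPM were below those of lymphoid cells, at 86.1 and 42.6 CPM. Without their top cell the lymphoid levels were 37.0 and 41.1 CPM. In WT no member passed 2-fold over time, where 11% of all genes did.

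Over all cells of a library together S100a8 and S100a9 were higher where neutrophil-like cells were a larger share, in CCR2 KO against WT. S100a8 was at 1927, 11298, 790 and 10282 CPM of the whole library and S100a9 at 2177, 12959, 1080 and 9851 CPM, both higher in the CCR2 KO libraries. Shares in the values below are shares of the UMIs of a library, not of its cells. Neutrophil-like cells held 3.74%, 39.6%, 2.86% and 22.8% of the UMIs. At 24 h the log2 ratio of CCR2 KO to WT was 2.55 for S100a8. It was 3.12 with the class levels of WT and the class shares of CCR2 KO, and −0.80 with the shares of WT and the levels of CCR2 KO. At 72 h these values were 3.70, 2.87 and 0.77. Over time in WT the ratio was −1.29 for S100a8, with −0.29 from shares alone and −0.92 from levels alone, and for S100a9 it was −1.01, −0.30 and −0.64. In CCR2 KO the S100a8 values were −0.14, −0.78 and 0.65. S100a10 went the other way at 24 h, at −1.21 in all, −0.70 from shares alone and −0.82 from levels alone. At least 2-fold differences between CCR2 KO and WT were seen for 3 of 6 members at 24 h (S100a8, S100a9 and S100a10; 15.8% of all genes) and 4 of 6 at 72 h (S100a6, S100a8, S100a9 and S100a11; 12.3%), and between times for 2 of 6 in WT (S100a8 and S100a9; 10.9%) and none in CCR2 KO (11.1%).

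The known partners and receptors of these proteins were read beside them. Of 12 such genes, 11 were at 20 CPM or more in Mφ-like cells and none passed 2-fold between CCR2 KO and WT at either time (3.99% and 7.6% of all genes did), with a median log2 ratio of −0.06 at 24 h and 0.34 at 72 h, beside medians of all genes of −0.07 and 0.12. Over time 1 passed (13.1% of all genes did in WT and 14.9% in CCR2 KO), Cacybp in WT, at 188 CPM at 24 h and 74.7 CPM at 72 h. In neutrophil-like cells 1 of 10 was lower in CCR2 KO at 24 h (Anxa5, 19.3 against 41.6 CPM), where 8.96% of all genes passed 2-fold. At 72 h 1 of 11 was lower (Anxa6, 25.7 against 63.1 CPM), where 4.44% of all genes passed. The Anxa5 call rested on 33 UMIs in WT 24 h, 33.3% of them in 1 cell, and was not recomputed without that cell. Over time 3 of 11 passed 2-fold in each genotype, where 30.8% and 26.1% of all genes did: Anxa6 was higher at 72 h in both, Bsg in WT and Cacybp in CCR2 KO. Tlr4, the calprotectin receptor, was the third in each and lower at 72 h than at 24 h in the neutrophil-like cells of both genotypes, at 84.1 against 176 CPM in WT and 140 against 281 CPM in CCR2 KO. Bsg (basigin, a receptor for S100a9) was at 94.4 CPM at 24 h and 212 CPM at 72 h in WT, a log2 ratio of 1.17, and its ratio in CCR2 KO was 0.89. Anxa2 was at 938, 897, 925 and 1119 CPM in neutrophil-like cells, where its partner S100a10 was at most 40.3 CPM, and at 592, 399, 420 and 654 CPM in Mφ-like cells. Of the 11 other S100-named rows, S100a13 ranged from 99.9 to 352 CPM and S100a1 from 2.52 to 62.2 CPM over the pools, S100pbp, which is no S100 protein but binds one, reached 34.8 CPM, and the other 8 reached at most 16.8 CPM.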

How the data were processed

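The authors deposited 1 table of UMI counts per library (10x Genomics 3′ chemistry), made per the labels with Cell Ranger 3.0.2 on GRCm38 and filtered in Seurat, in the submitters' processing notes, to cells with at least 200 genes and at most 10% mitochondrial UMIs; whether doublets were removed is not given in the sources used here. Here each cell was placed in the class with the highest marker score. At least 2 markers of that class had to be detected, and its score had to lead the next class by 0.1. The score was the mean over the markers of the natural log of UMIs per 10000 plus 1. Each marker was first divided by its mean among the cells that detected it. UMIs were summed per class and library and given per 1000000 UMIs of the class (CPM); classes with at least 20 cells were used. Levels carry exact Poisson intervals, shares of cells exact Clopper-Pearson intervals, and log2 ratios exact conditional binomial intervals, all at 95%. A gene was compared when at 20 CPM or more in either library and called at 2-fold; percentages of genes called cover all genes so compared. Shares of cells with a UMI of a member were taken after thinning to 1000 UMIs per cell. The Retnlg and Siglecf splits used unthinned cells unless thinning is named. With 1 library per group no test was made.

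The members, markers, partner list and nearest-gene rule (the 3 genes with the highest Pearson correlation over pools, among those at 20 CPM or more in 1 pool) were chosen with earlier results of these data known. The Retnlg and Siglecf splits, the 200 CPM subsets and the genes of the S100a8-holding cells were chosen after values were seen. Alternatives were TMM scaling (edgeR 4.0.16 in R 4.3.3), leaving the members out of the totals, equal weight of cells, Leiden clusters (scanpy 1.11.5, leidenalg 0.10.2), a stricter gate (lead 0.2), at most 5% mitochondrial UMIs, Scrublet calls left out, thinning, and the lymphoid level subtracted; those that leave out cells rich in S100a9 or the cell with the most UMIs of a gene were added after the data were seen. Python 3.11.15, numpy 2.4.6, pandas 2.3.3, scipy 1.17.1 and matplotlib 3.10.9 were used, and the scripts were tested on simulated data.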

Additional observations from a re-analysis of the deposited data

Results flagged for a closer look

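Changes of sign in the CCR2 KO against WT difference between 24 h and 72 h were listed where the counting intervals excluded equal levels at both times. There were 9, among the 6 members in neutrophil-like, Mφ-like and dendritic cell-like cells. There was 1 library at each point, so the difference between the times was not tested. In neutrophil-like cells the log2 ratio of S100a8 was −0.56 at 24 h and 0.82 at 72 h, a gap of 1.38. S100a9 was at −0.76 and 0.27, a gap of 1.03, and S100a6 at −0.22 and 0.68, a gap of 0.90. The near-absent S100a4, at −1.63 and 2.07, and S100a10, at −1.15 and 1.90, had gaps of 3.69 and 3.05, on 4 and 5 UMIs in WT 72 h and with 13 of 35 and 21 of 32 UMIs of WT 24 h in 1 cell each. In Mφ-like cells S100a4 was at −0.70 and 0.68, a gap of 1.38, S100a10 at −0.85 and 0.34, a gap of 1.19, and S100a6 at −0.81 and 0.34, a gap of 1.14. In dendritic cell-like cells S100a6 was at 0.15 and −0.25, a gap of −0.40, in pools of 26 to 69 cells. The cells behind these ratios were 307 and 1315 neutrophil-like cells at 24 h and 189 and 570 at 72 h (WT and CCR2 KO), and 1282 and 209 and then 909 and 136 Mφ-like cells.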

How the results depend on the processing

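Of 64 recomputed log2 ratios (8 summed levels under 8 settings), 25 stayed within the counting interval, 38 moved beyond it and 1 changed sign. Leaving out the Scrublet calls took no neutrophil-like cell and 4 Mφ-like cells. The 5% mitochondrial cut took neutrophil-like cells from CCR2 KO 72 h only. Ratios between libraries that lost no cell could not move under these settings, so they say nothing of robustness, here or for the single members below. For S100a8 and S100a9 together in neutrophil-like cells, the ratios were −0.67 (CCR2 KO against WT at 24 h), 0.53 (72 h), −0.67 (72 h against 24 h in WT) and 0.52 (in CCR2 KO). In that order they were −0.63, 0.55, −1.23 and −0.050 under TMM scaling, the last with its sign turned; −0.72, 0.57, −0.72 and 0.57 with the members left out of the totals; −0.56, 0.25, −0.62 and 0.19 with equal weight of cells; and −0.74, 0.51, −0.73 and 0.51 in Leiden clusters. Thinning gave −0.60, 0.27 and 0.21 for the first, second and last. For S100a4, S100a6, S100a10 and S100a11 together in Mφ-like cells the ratios were −0.80, 0.36, −0.75 and 0.41. They were −0.88, 0.20, −0.90 and 0.19 under TMM scaling; −0.77, 0.56, −0.80 and 0.52 with equal weight; and −0.74, 1.16, −0.78 and 1.12 with at most 5% mitochondrial UMIs. Leiden clusters gave −0.72 at 24 h and −0.68 in WT, and the stricter gate −0.84 and 0.25 (CCR2 KO against WT at 24 h and 72 h) and 0.34 (over time in CCR2 KO). Thinning gave 0.52 at 72 h, −0.83 in WT and 0.52 in CCR2 KO. TMM factors differed by 0.57 between the times in neutrophil-like cells of both genotypes, which is the shift seen there; the cause of the other moves was not tested. With no minimum level the share of all genes past 2-fold was 24.7%, 17.1%, 40.3% and 42.1% in neutrophil-like cells (main values 8.96%, 4.44%, 30.8% and 26.1%) and 18.3%, 25.6%, 32.9% and 28.9% in Mφ-like cells (3.99%, 7.6%, 13.1% and 14.9%). Of 320 recomputed ratios of single members 22 changed sign. The near-absent S100a4 and S100a10 of neutrophil-like cells were not among the 320.

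With cells holding at least 10 S100a9 UMIs left out, chosen after seeing the data, the Mφ-like S100a9 ratio at 24 h was 1.47. Subtracting the lymphoid level left S100a8 in dendritic cell-like cells below 0 in WT at 24 h (−8.15 CPM) and in CCR2 KO at 24 h and 72 h (−88.5 and −8.26 CPM), and S100a9 there in all 4 libraries (−1.38, −63.9, −2.16 and −18.9 CPM). In Mφ-like cells of CCR2 KO 24 h it left S100a8 at −61.6 and S100a9 at −49.7 CPM, of which 1 NK-like cell was the main part: without the lymphoid cell with the most UMIs of the gene, also chosen after seeing the data, S100a8 was left at 19.1 and S100a9 at −0.64 CPM. The dendritic cell-like values below 0 were then −1.76, −7.81 and −6.89 CPM for S100a8 in the same 3 libraries, and −14.8, −0.35 and −17.4 CPM for S100a9 in all but WT 24 h. No paired analysis was possible because each group held 1 library, and for the same reason no replicate could be left out. Depth limits the classes of few cells: pools under 20 cells were not used.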
